A study of Zea mays with 6 samples.

Results

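The genes described here are 8 maize genes linked to desiccation, taken from the 39283 genes of an RNA-seq table by their identifiers: *DEHYDRIN1*, *DEHYDRIN2*, *DEHYDRIN3*, *ZmRD29B*, *ZmRD17*, *ZmRD22A*, *ZmRD22B* and the *LATE EMBRYOGENESIS ABUNDANT* (*LEA*) gene GRMZM2G425629. They were chosen because their transcript levels differed between mutant and wild-type libraries, so that the differences below are a description and carry no test. RNA was sequenced from the tips of coleoptiles, the sheaths that cover the first leaves of germinating maize seedlings, of *fdl1-Mu* mutants (3 replicates) and wild-type plants (3 replicates). Both genotypes were in the W22 background and were grown in a chamber at 28°C, and each replicate pooled 5 tips of 3 to 4 mm collected 3 days after germination. *FUSED LEAVES1* (*FDL1*, also *ZmMYB94*) encodes a MYB transcription factor of cuticle development, and *fdl1-Mu* carries a transposon insertion in it. The methods name plants homozygous and heterozygous for *fdl1-Mu* as the source of the material, and by the labels the mutant samples included tips that looked normal.

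The table holds the authors' FPKM (fragments per kilobase, corrected for the number of fragments mapped in the library) as 1 value per gene and genotype, pooled over the replicates. No spread between replicates can therefore stand beside a value, no test could be run on these pooled values, and read numbers are unknown. The authors' own test results were deposited with the values and were not used. FPKM are scaled to transcript length, so that levels can be set side by side between genes. *FDL1* itself (GRMZM2G056407) had 12.7 FPKM in *fdl1-Mu* and 4.58 FPKM in wild type, a log2 ratio of 1.48. The mutated gene was higher, not lower, under the *fdl1-Mu* label, a value that does not show whether its transcripts carried the insertion, and every direction below rests on these labels. Of the 21382 genes with at least 1 FPKM in either genotype, 18 were listed at 0 in a genotype, and the other 21364 had a median log2 ratio of 0.021, with -0.60 at the 5th and 0.97 at the 95th percentile.

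Late embryogenesis abundant proteins are hydrophilic, largely unfolded proteins that accumulate as seeds dry and, in leaves and roots, when water is lost. Dehydrins are a family of them, and many are induced by abscisic acid (ABA), cold and salt. *RESPONSIVE TO DESICCATION* (*RD*) genes were named in Arabidopsis for induction by drying and encode unlike proteins. RD17 (COR47) is a dehydrin of cold and drought responses, RD29B is a hydrophilic protein under ABA control, and RD22 is a BURP-domain protein, a plant family with members in the cell wall, that is induced in Arabidopsis by drying and ABA.

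The 8 genes did not move as a block. Levels were higher in *fdl1-Mu* for the 3 dehydrin genes, *ZmRD17*, *ZmRD29B* and the *LEA* gene, and lower for *ZmRD22A* and *ZmRD22B*. At least 2-fold higher were 5 of the 8, against a background of 4.69% of the 21382 genes, and at least 2-fold lower were 2 of the 8, against 1.36%. Together 7 of the 8 were past 2-fold, against 6.05% of genes in either direction, and *DEHYDRIN3* was not. As the genes were chosen for such differences, nothing is read from these shares. All 8 reached 1 FPKM in either genotype, but *DEHYDRIN2* and *ZmRD29B* did so in *fdl1-Mu* only and so had to be higher there to be counted. The RNA was bulk RNA of the whole tip, in which a change in the number of cells that express a gene and a change in RNA per cell cannot be told apart. None of the 8 loci overlapped another annotated locus.

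**Figure D1:**
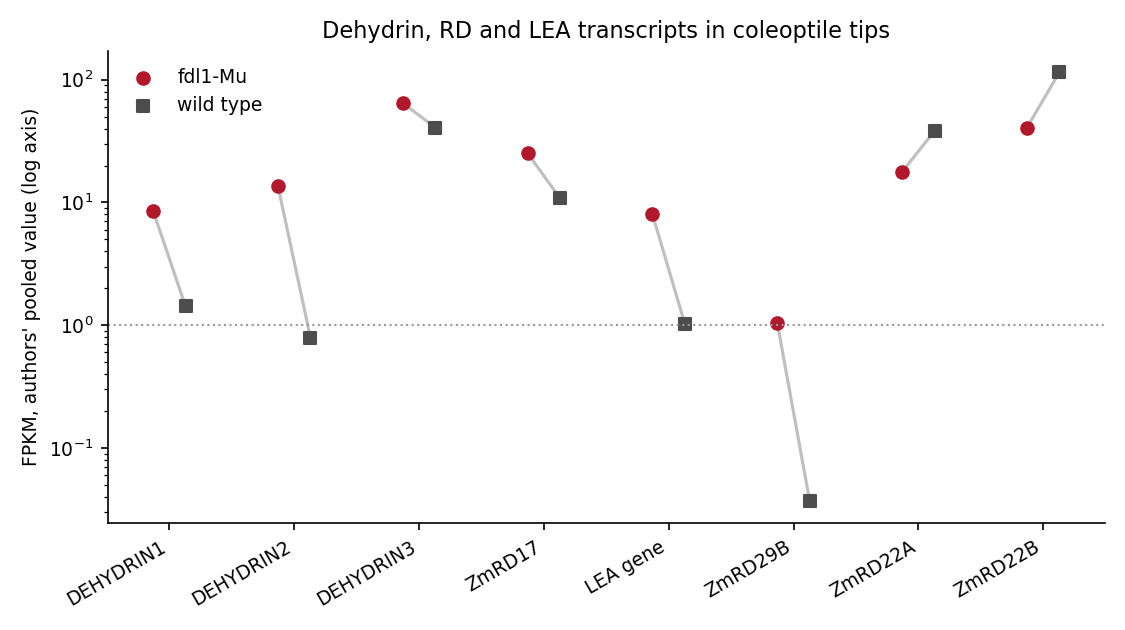
FPKM (log axis, the authors' pooled value, without replicate error) of the 8 genes in *fdl1-Mu* (red circles) and wild type (grey squares), with a dotted line at 1 FPKM. The red circle lies above the grey square for 6 genes and below it for *ZmRD22A* and *ZmRD22B*, and the widest gap is that of *ZmRD29B*, at 1.04 against 0.0368 FPKM.

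Among the dehydrins, *DEHYDRIN2* (GRMZM2G098750, chromosome 9 of B73v3, 19026221 to 19027674), which the study's annotation pairs with Arabidopsis RAB18, a dehydrin induced by ABA, had 13.6 FPKM in *fdl1-Mu* and 0.794 FPKM in wild type. The ratio was 17.1-fold, or 4.10 on the log2 scale, which was the 8th highest of the 21364 genes. *DEHYDRIN1* (GRMZM2G079440, chromosome 6, 137332062 to 137333893) is the maize *RAB17* gene, known as an ABA-responsive gene of embryos. It had 8.55 FPKM in *fdl1-Mu* and 1.42 FPKM in wild type, a 6.01-fold difference with a log2 ratio of 2.59, the 44th highest. *DEHYDRIN2* was thus below *DEHYDRIN1* in wild type and above it in *fdl1-Mu*.

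*DEHYDRIN3* (GRMZM2G373522, chromosome 4, 154337342 to 154339063), named *dhn2* as well as *dehydrin3* in RefSeq, was the abundant member in both genotypes. It had 64.6 FPKM in *fdl1-Mu* and 40.7 FPKM in wild type, only 1.59-fold apart, with a log2 ratio of 0.67 that ranked 2062nd. Among the 3098 genes whose wild-type FPKM lay within 1.5-fold of that of *DEHYDRIN3*, 96 (itself included) had as high a ratio. Its absolute gain of 23.9 FPKM was nevertheless larger than those of *DEHYDRIN2* (12.8 FPKM) and *DEHYDRIN1* (7.13 FPKM), so that the order of the 3 dehydrins by FPKM gained was not their order by ratio.

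The summed FPKM of the 3 dehydrins was 86.7 in *fdl1-Mu* and 42.9 in wild type, a log2 ratio of 1.02. *DEHYDRIN3* contributed 54.5% of the gain, *DEHYDRIN2* 29.2% and *DEHYDRIN1* 16.3%. The make-up of the sum differed as well. Of the sum of these 3 genes, *DEHYDRIN3* made up 74.5% in *fdl1-Mu*, against 94.8% in wild type. *DEHYDRIN2* made up 15.7% in *fdl1-Mu*, against 1.85% in wild type. *DEHYDRIN1* held 9.86% in *fdl1-Mu* and 3.31% in wild type. The sum leaves out *dehydrin7* (GRMZM2G002786), which had 78.1 FPKM in *fdl1-Mu* and 69.3 FPKM in wild type, so these are not shares of the whole family.

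*ZmRD17* (GRMZM2G147014, chromosome 5, 193902115 to 193903647), paired with the Arabidopsis dehydrin COR47, stood between these patterns. Its level was 25.2 FPKM in *fdl1-Mu* and 10.8 FPKM in wild type, 2.33-fold apart with a log2 ratio of 1.22. The gain of 14.4 FPKM was the second largest of the 8 genes after that of *DEHYDRIN3*. Of the 5025 genes within 1.5-fold of its wild-type FPKM, 38 (itself included) had as high a ratio. With *ZmRD17* counted as a dehydrin, the summed FPKM of the 4 genes was 112 in *fdl1-Mu* and 53.7 in wild type.

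The *LEA* gene GRMZM2G425629 (chromosome 3, 204761035 to 204762289), annotated to the LEA family without a closer name, resembled *DEHYDRIN1* in level. It had 7.9996 FPKM in *fdl1-Mu* and 1.02 FPKM in wild type, 7.85-fold apart with a log2 ratio of 2.97, the 22nd highest. Its gain was 6.98 FPKM.

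*ZmRD29B* (GRMZM2G376743, chromosome 5, 23783297 to 23785415), paired with a gene that is a standard reporter of ABA and salt responses in Arabidopsis, had the highest ratio and the lowest level of the 8. Its FPKM was 1.04 in *fdl1-Mu* and 0.0368 in wild type. The log2 ratio of 4.82 was the 4th highest of all, while the absolute gain of 1.003 FPKM was the smallest of the 6 higher genes and only the 7106th largest among the 21382 genes. How many reads stood behind so low a wild-type level is unknown. With 1 FPKM added to both values the ratio was 0.98 on the log2 scale, below 2-fold and 5th among the 8.

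**Figure D2:**
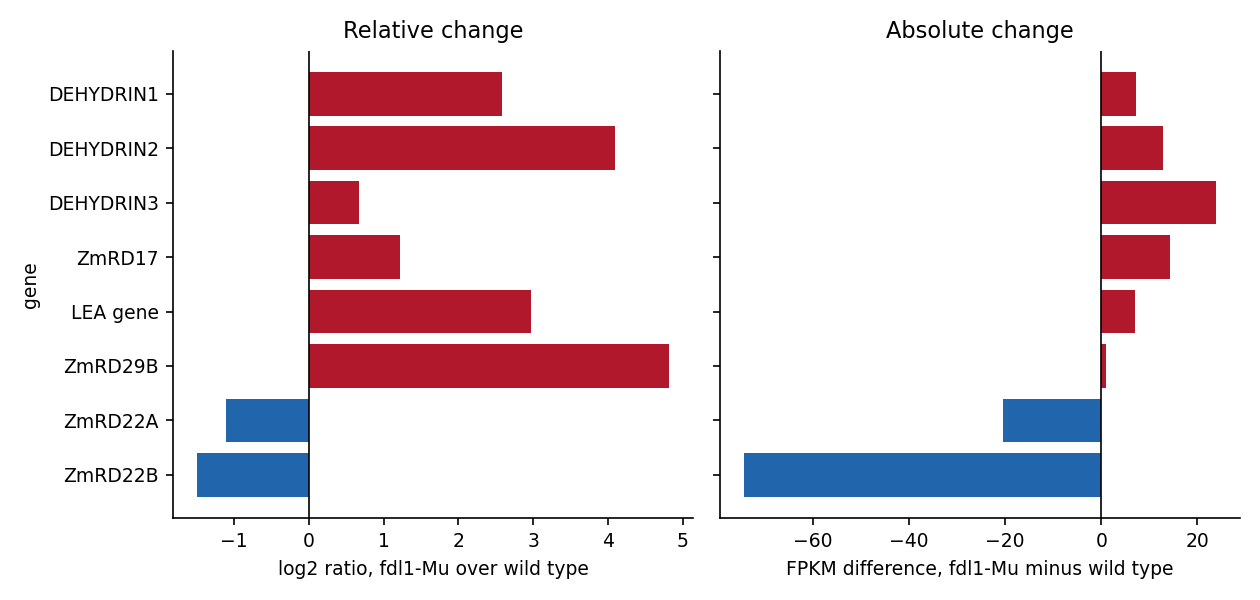
Change of each gene in *fdl1-Mu* relative to wild type, as the log2 ratio of FPKM (left) and as the FPKM difference (right), from the authors' pooled values, with red bars for higher and blue bars for lower in *fdl1-Mu*. *ZmRD29B* leads on the left with 4.82 and is barely visible on the right at 1.003 FPKM, while *ZmRD22B* has the longest bar on the right at -74.3 FPKM.

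The RD22 genes went the other way. *ZmRD22B* (GRMZM5G800586, *BURP4* in RefSeq, chromosome 3, 200503799 to 200505886) had 40.8 FPKM in *fdl1-Mu* and 115 FPKM in wild type, 2.82-fold lower in *fdl1-Mu* with a log2 ratio of -1.50. The ratio was the 117th lowest of the 21364 genes and the FPKM difference of -74.3 the 82nd lowest of the 21382. Of the 931 genes within 1.5-fold of its wild-type FPKM, *ZmRD22B* itself had the lowest ratio. *ZmRD22A* (GRMZM2G446170, *BURP10* in RefSeq, chromosome 8, 175285916 to 175288181) had 17.8 FPKM in *fdl1-Mu* and 38.3 FPKM in wild type, 2.15-fold lower in *fdl1-Mu* with a log2 ratio of -1.10, the 211th lowest. Its FPKM difference was -20.5, and 11 of the 3309 genes of like wild-type level (itself included) had as low a ratio. *ZmRD22B* remained the more abundant of the pair, 2.29-fold above *ZmRD22A* in *fdl1-Mu* and 3.01-fold above it in wild type.

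Set against each other, the 3 dehydrins had a median log2 ratio of 2.59 and the RD22 pair of -1.30, a difference of 3.89. The ranges did not meet, as *DEHYDRIN3*, the dehydrin with the lowest ratio, still lay 1.77 on the log2 scale above *ZmRD22A*. This separation is a part of how the genes were chosen. By level, the RD22 pair summed to 58.5 FPKM in *fdl1-Mu* and 153 FPKM in wild type, which was 0.675 times the dehydrin sum in *fdl1-Mu* and 3.57 times that sum in wild type.

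The exchange of places was visible in the order of levels. In *fdl1-Mu* the order was *DEHYDRIN3*, *ZmRD22B*, *ZmRD17*, *ZmRD22A*, *DEHYDRIN2*, *DEHYDRIN1*, the *LEA* gene and *ZmRD29B*. In wild type it was *ZmRD22B*, *DEHYDRIN3*, *ZmRD22A*, *ZmRD17*, *DEHYDRIN1*, the *LEA* gene, *DEHYDRIN2* and *ZmRD29B*. Neighbours in these orders were sometimes close, such as *DEHYDRIN1* and the *LEA* gene in *fdl1-Mu*, 1.07-fold apart, and *DEHYDRIN3* and *ZmRD22A* in wild type, 1.06-fold apart. Whether such neighbours differed beyond replicate error could not be asked of pooled values. Without *ZmRD29B*, the highest and the lowest level were 8.07-fold apart in *fdl1-Mu* and 145-fold apart in wild type.

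The 8 genes together had a lower sum in the mutant, 179.5 FPKM in *fdl1-Mu* and 208 FPKM in wild type. The 6 higher genes gained 66.2 FPKM and the RD22 pair lost 94.8 FPKM. *ZmRD22B* alone held 22.7% of the sum in *fdl1-Mu* and 55.3% in wild type, and *DEHYDRIN3* held 36.0% in *fdl1-Mu* and 19.5% in wild type.

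**Figure D3:**
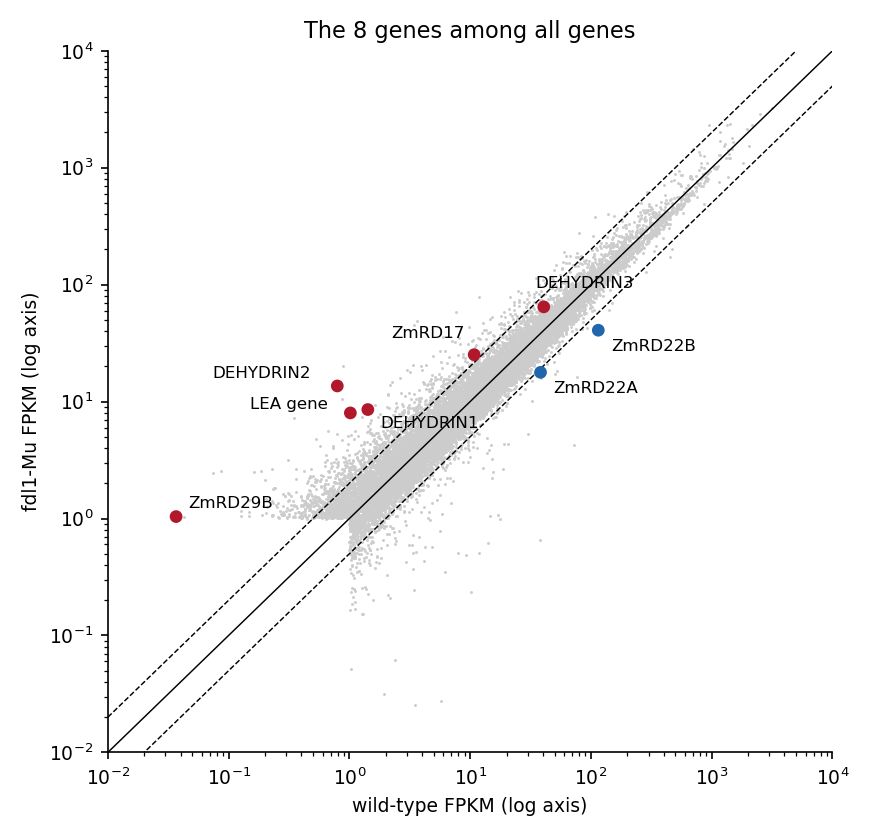
FPKM of each gene in *fdl1-Mu* (vertical, log axis) against wild type (horizontal, log axis) for the genes above 0 in both genotypes and with at least 1 FPKM in either (grey), with the 8 genes in red where higher and in blue where lower in *fdl1-Mu*. The solid line marks equal values and the dashed lines 2-fold differences, and 7 of the 8 genes lie outside the dashed lines while *DEHYDRIN3* lies between them.

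The lower level in *fdl1-Mu* was not shared by the whole BURP family. RefSeq names 9 BURP genes that could be matched to the table, and 7 of them are not among the 8 genes. *BURP3* (GRMZM2G106980, chromosome 1, 203686906 to 203693519), which the study's annotation also pairs with Arabidopsis RD22, had 139 FPKM in *fdl1-Mu* and 57.4 FPKM in wild type, 2.43-fold higher in *fdl1-Mu* with a log2 ratio of 1.28. *BURP5* (GRMZM2G147756) had 19.9 FPKM in *fdl1-Mu* and 18.1 FPKM in wild type, a log2 ratio of 0.14. The other 5 stayed under 1 FPKM in both genotypes, and *BURP6* and *BURP8* were listed at 0 in both. Over the 4 BURP genes with at least 1 FPKM, which include both RD22 genes, 1 was at least 2-fold higher (4.69% of all genes), 2 were at least 2-fold lower (1.36% of all genes) and the median log2 ratio was -0.48. Both lower genes were the RD22 pair, which was chosen for its difference. Without that pair, the median of *BURP3* and *BURP5* was 0.71.

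The FPKM gained by *BURP3* (82.0) was of similar size to the 94.8 lost by *ZmRD22A* and *ZmRD22B*, so that these 3 genes summed to 198 FPKM in *fdl1-Mu* and 211 FPKM in wild type. All 9 BURP genes summed to 218 FPKM in *fdl1-Mu* and 229 FPKM in wild type, a log2 ratio of -0.07. Within that sum, *BURP3* held 63.9% in *fdl1-Mu* and 25.1% in wild type, *ZmRD22B* held 18.7% in *fdl1-Mu* and 50.2% in wild type, and *ZmRD22A* held 8.15% in *fdl1-Mu* and 16.7% in wild type. The W22 reads were mapped to the B73 genome, and whether reads were divided correctly between these relatives was not tested.

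**Figure D4:**
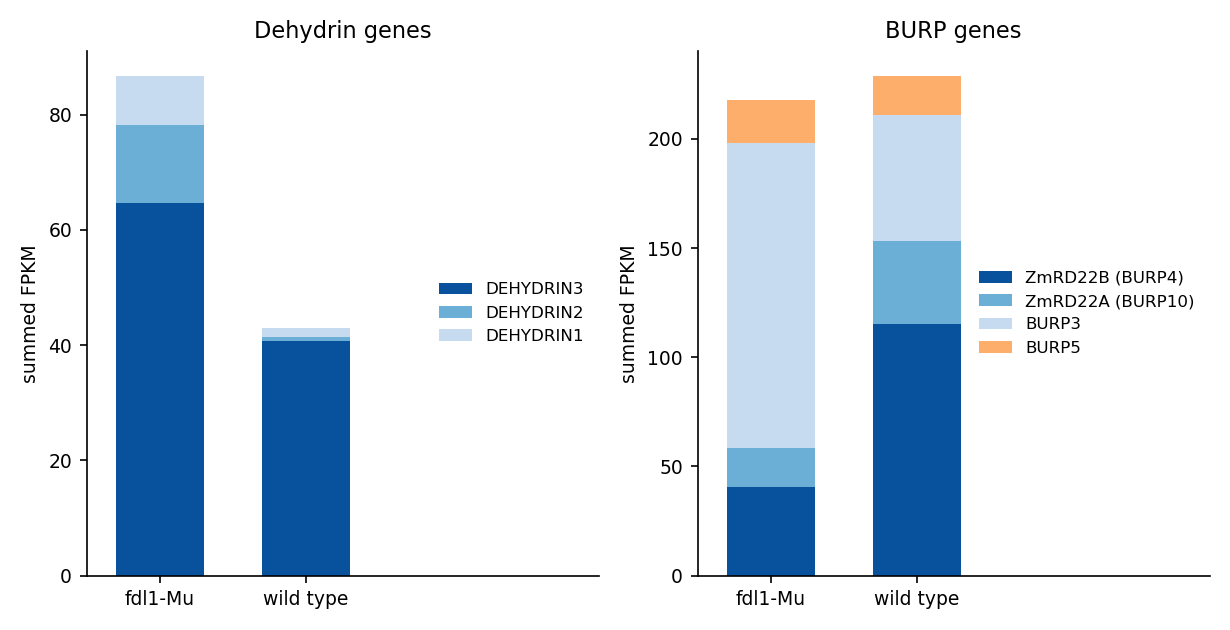
Summed FPKM of the 3 dehydrin genes (left) and of the 4 BURP genes with at least 1 FPKM (right) in *fdl1-Mu* and wild type, stacked by gene from the authors' pooled values. The dehydrin stack, of genes chosen for their difference, is taller in *fdl1-Mu* (86.7 against 42.9 FPKM). It leaves out *dehydrin7* (GRMZM2G002786), with 78.1 FPKM in *fdl1-Mu* and 69.3 FPKM in wild type. The BURP stacks are of nearly equal height, with *BURP3* as the largest part in *fdl1-Mu* and *ZmRD22B* as the largest part in wild type. As the stacks were not filled by the same rule, no contrast of the 2 families is read from them.

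Relatives of the dehydrin and *LEA* genes were found by name in RefSeq. Outside the 8 genes these were *dehydrin7*, *mlg3*, *EMB5* and *Lea14A*. *mlg3* (GRMZM2G096475), a maize LEA gene, had 9.38 FPKM in *fdl1-Mu* and 1.64 FPKM in wild type, a log2 ratio of 2.52. *Lea14A* (GRMZM2G050607) had 5.57 FPKM in *fdl1-Mu* and 1.10 FPKM in wild type, a log2 ratio of 2.33. Both were low in wild type, as were *DEHYDRIN1*, *DEHYDRIN2* and the *LEA* gene. *dehydrin7* (GRMZM2G002786), by contrast, was abundant and little different, with 78.1 FPKM in *fdl1-Mu* and 69.3 FPKM in wild type, a log2 ratio of 0.17. *EMB5* (GRMZM2G162659), which encodes an Em-type LEA protein of embryos, was under 1 FPKM in both genotypes, at 0.740 in *fdl1-Mu* and 0.718 in wild type. Of the 3 relatives with at least 1 FPKM, 2 were at least 2-fold higher in *fdl1-Mu*, against 4.69% of all genes, and none was at least 2-fold lower, against 1.36%. The names were listed with earlier results of these data known, and nothing is read from so small a count.

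The study placed 7 of the 8 genes in a class of desiccation tolerance with 4 more genes, chosen on these same libraries and so no independent evidence of a direction. All 4 were higher in *fdl1-Mu*, and 2 of them, *ZmDSI-1VOC* and *AOX1*, at least 2-fold, against 4.69% of all genes. Both reached 1 FPKM in *fdl1-Mu* only and so had to be higher there to be counted. The count was 1 with a pseudocount of 1 and 0 when at least 1 FPKM was asked of both genotypes. *ZmERD15* (GRMZM2G181551), whose Arabidopsis relative responds early to dehydration, had 173 FPKM in *fdl1-Mu* and 104 FPKM in wild type. Its gain of 68.9 FPKM was larger than that of any of the 8 genes, at a log2 ratio of only 0.73. *ZmVPP1* (GRMZM2G170927), encoding a proton-pumping pyrophosphatase of the vacuole, had 49.5 FPKM in *fdl1-Mu* and 32.5 FPKM in wild type. *ZmDSI-1VOC* (GRMZM2G172574) had 4.81 FPKM in *fdl1-Mu* and 0.531 FPKM in wild type, a log2 ratio of 3.18, and *AOX1* (AC233960.1_FG002), encoding an alternative oxidase of mitochondria, had 1.75 FPKM in *fdl1-Mu* and 0.701 FPKM in wild type.

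As dehydrins and LEA proteins are abundant in seeds, genes of seed tissue were set beside them. Of 11 names of embryo and seed genes, 5 could be matched. The storage globulin genes *glb1* and *glb2* were near 0, at 0.138 and 0.139 FPKM in *fdl1-Mu* and at 0.129 and 0.134 FPKM in wild type. The oleosin gene *ole1* had 4.88 FPKM in *fdl1-Mu* and 4.60 FPKM in wild type, and the seed maturation regulator *vp1* had 2.82 FPKM in *fdl1-Mu* and 3.37 FPKM in wild type. The fifth was *mlg3*, given above. Of the 3 with at least 1 FPKM in either genotype, *mlg3* alone was at least 2-fold higher, against 4.69% of all genes. The summed level of the 5 was 17.4 FPKM in *fdl1-Mu* and 9.87 FPKM in wild type, and that of the 4 without *mlg3* was 7.98 FPKM in *fdl1-Mu* and 8.23 FPKM in wild type. For endosperm, 4 of 6 names were matched, to 5 identifiers. The zein genes *zp15* and *zp27* were under 1 FPKM in both genotypes, and the zein regulator *o2* was listed at 0 in both. The name *pbf1* pairs with 2 neighbouring identifiers, of which GRMZM2G146267 had 13.7 FPKM in *fdl1-Mu* and 14.9 FPKM in wild type and GRMZM2G146283 was listed at 0 in *fdl1-Mu* and had 0.0462 FPKM in wild type. Which of them is the endosperm factor was not settled, so that no endosperm level is read from this name. For green leaf, 3 of 7 names were matched, with a sum of 8.79 FPKM in *fdl1-Mu* and 6.73 FPKM in wild type. Among these, *ssu1*, for the small subunit of Rubisco, had 4.41 FPKM in *fdl1-Mu* and 1.88 FPKM in wild type, whereas *me3*, for a malic enzyme, had 4.32 FPKM in *fdl1-Mu* and 4.83 FPKM in wild type. The third, *pep1*, for the carboxylase of the C4 cycle, was near 0 at 0.0603 FPKM in *fdl1-Mu* and 0.0251 FPKM in wild type. The part of leaf tissue in the differences of the 8 genes was not tested, and the labelled tissue was not checked, as no marker of coleoptiles was used.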

How the data were processed

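Stranded mRNA libraries of 3 *fdl1-Mu* and 3 wild-type replicates were made and sequenced by the authors. Per the study's methods and the submitters' processing notes, reads were trimmed with Trimmomatic, mapped to the B73v3 genome with TopHat2 2.1.1 and compared with Cuffdiff, and the authors deposited 1 FPKM value per gene and group. Versions of the other tools and the gene annotation are not given in the sources used here. The deposited fold changes, test statistics, p-values and q-values are the authors' own comparison and were not used. Steps that whole reads would leave were sought in the log2 ratios of 3755 genes with low FPKM, of which the fullest of 60 bins held 6.21%. No expected share was set, so that this value cannot decide whether such steps are present. Depth and counting error are unknown.

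Python 3.11.15 with numpy 2.4.6, pandas 2.3.3 and matplotlib 3.10.9 was used. Log2 ratios of *fdl1-Mu* over wild type were computed without a pseudocount, and a difference was counted at 2-fold or more. Ranks were taken among genes that reached 1 FPKM in either group, those of ratios among the genes also above 0 in both. Coordinates count from 1, that is, 1 above the deposited locus starts. The 8 genes and all lists were chosen with earlier results of these data known. The named genes are these 8, *FDL1*, the 4 other genes of the study's class, relatives by name and, for each of the 8, the named gene nearest in both log2 FPKM values. Families were to be found by protein patterns and promoters searched for motifs. The reference used here, RefSeq names of Zm-B73-REFERENCE-NAM-5.0, holds no sequences, so that RefSeq names replaced the patterns and promoters were not analysed. RefSeq entries matched 48.0% of the identifiers and 7 of the 8 genes, all but *ZmRD29B*. The entries of *DEHYDRIN2*, *ZmRD17* and the *LEA* gene held no gene name. A search by name would have missed these genes, and further relatives may lack a name there. Alternatives were pseudocounts of 0.1 and 1, centring on the median gene, equal sums of FPKM, fold minimums of 1.5 and 3, and other filters on FPKM.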

Additional observations from a re-analysis of the deposited data

How the results depend on the processing

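Every gene of the 8 kept its direction with pseudocounts of 0.1 and 1, with centring on the median gene and with equal sums of FPKM. A pseudocount added to both values cannot turn a direction. Centring and equal sums moved the log2 ratios by only 0.021 and 0.031, against a smallest ratio of 0.67 for *DEHYDRIN3*. The kept directions were thus fixed in advance, and nothing is read from them. Of these 32 log2 ratios, 31 stayed on their side of 2-fold. The exception was *ZmRD29B*, at 0.98 with a pseudocount of 1. The difference between the dehydrin and RD22 medians, 3.89, was 3.80 with a pseudocount of 0.1, 3.25 with a pseudocount of 1 and 3.21 with *ZmRD17* counted with the dehydrins. With a fold minimum of 3, 4 of the 8 genes were counted as higher (1.34% of all genes) and 0 as lower (0.538%), and with a minimum of 1.5, 6 as higher (11.7%) and 2 as lower (5.38%). Over all genes, 1003 were at least 2-fold higher and 291 at least 2-fold lower among those that reached 1 FPKM in either group. Without a filter these were 2192 and 1282 genes, as low values then enter, and with at least 1 FPKM in both groups 623 and 135. Of the 4 other genes of the study's class, 2 were at least 2-fold higher, but 1 with a pseudocount of 1 and 0 with at least 1 FPKM in both groups, where *ZmDSI-1VOC* and *AOX1* are left out. No paired analysis was possible because the table holds 1 pooled value per group, and for the same reason no replicate could be left out. Unknown depth limits the low genes most, above all *ZmRD29B*.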

Other observations

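The gene nearest to each of the 8 was sought among 6030 genes with a name in RefSeq, by the distance in the plane of both log2 FPKM values, which rests on 2 pooled values per gene. The 8 genes were chosen by these same values, and those with a name stayed among the candidates. *DEHYDRIN2*, *ZmRD17*, *ZmRD29B* and the *LEA* gene have no name there and could not be found as neighbours. Nothing is therefore read from genes of the 8 that lay near each other. The nearest gene to *DEHYDRIN1* was the LEA gene *mlg3*, at a distance of 0.25, and the nearest to both *DEHYDRIN2* and the *LEA* gene GRMZM2G425629 was *DEHYDRIN1*, at distances of 1.07 and 0.49. *DEHYDRIN3*, at a level and ratio that many genes have, lay nearest to *HB112* (GRMZM2G003304), with 63.2 FPKM in *fdl1-Mu* and 40.1 FPKM in wild type. Nearest to *ZmRD22B* was *msh1* (GRMZM2G036217), with 42.7 FPKM in *fdl1-Mu* and 93.2 FPKM in wild type. Nearest to *ZmRD22A* was GRMZM2G168833, with 16.1 FPKM in *fdl1-Mu* and 38.4 FPKM in wild type. *ZmRD17* lay nearest to GRMZM2G022642, with 25.2 FPKM in *fdl1-Mu* and 11.3 FPKM in wild type. *ZmRD29B* lay farthest from its nearest gene, GRMZM2G093125, at a distance of 1.53.

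The genes on either side of the 8 loci were mostly at like levels in both genotypes. There were 15 such flanking genes with at least 1 FPKM in either genotype, at distances of 0.647 to 302 kb. No gene at that level lay at higher coordinates than *ZmRD22A* on chromosome 8. The median log2 ratio of the 15 genes was -0.09. At least 2-fold higher were 0 of them, against 4.69% of all genes, and at least 2-fold lower was 1, against 1.36%. Nothing is read from counts so small. The lower gene was GRMZM2G112247 next to *ZmRD17*, with 0.760 FPKM in *fdl1-Mu* and 1.63 FPKM in wild type. It reached 1 FPKM in wild type only and so had to be lower in *fdl1-Mu* to be counted. The gene 0.647 kb from *DEHYDRIN2*, GRMZM2G028552, had a log2 ratio of -0.16, and the gene 0.8 kb from *ZmRD22B*, GRMZM2G069865, of -0.09.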
